A study of Ginkgo biloba with 2 samples.

Results

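The miR171, miR170 and miR169 families are old plant microRNA (miRNA) families, and their reads were examined in leaves of Ginkgo biloba, a gymnosperm tree. The members were all names in the deposited count table called miR171, miR170 or miR169, whatever the species prefix, letter or hairpin arm. They were 24 of the 467 names, with 15 names of miR171, 1 of miR170 and 8 of miR169. The counts come from a library of leaves labelled mutant yellow (from a gold-coloured mutant) and a library of normal green leaves, 1 of each. Per the labels, leaves of both kinds came from an adult tree and were taken between May and July of successive years. The protocols describe the mutant leaves as yellow-green striped, so their library may hold green tissue, and name cambium as the source of RNA although both tissue labels read leaf. Names summed to 2793966 reads in the yellow library and 2084893 in the green library.

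A plant miRNA guides an Argonaute protein to a nearly complementary site in a messenger RNA, which is then cut or blocked. miR171 and its close relative miR170 are known for cutting mRNAs of scarecrow-like proteins of the GRAS family, transcription factors that in Arabidopsis thaliana keep shoot meristem cells undifferentiated and restrain chlorophyll synthesis. miR169 is known for the A subunit of nuclear factor Y, the part of this DNA-binding complex that recognises the CCAAT sequence. In Arabidopsis this subunit takes part in drought and nutrient responses.

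1 library per leaf type was analysed, so no difference given here has a replicate check. Counts were scaled to CPM of the column total, and the ratio of yellow over green leaves was formed. All intervals are 95% exact intervals for counting error only, Poisson for a level and Clopper-Pearson binomial for a ratio or a share. They compare these 2 libraries, not the leaf types, and reads that carry no molecular identifier need not be independent molecules.

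miR171 carried nearly all of the reads of these families. Its 15 names summed to 456 reads (163 CPM) in yellow mutant leaves and 466 reads (224 CPM) in green leaves. Over the 61 numbered families of miRBase names, that sum ranked 14th in yellow and 17th in green leaves. The 8 miR169 names summed to 9 reads in yellow leaves and 4 in green leaves. The miR170 name, ath-miR170-3p, had 1 yellow-leaf and 0 green-leaf reads. A read may be counted under several names of a family, so these sums need not be numbers of distinct reads. The highest count of a single miR171 name was 109 reads in yellow leaves, under htu-miR171a and osa-miR171b, and 145 reads in green leaves, under smo-miR171b. Distinct miR171 reads lie between these counts and the sums.

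As a whole miR171 stood close to the middle of the table. Its summed ratio was 0.730 (0.640 to 0.833) when scaled by the total, and the median ratio over the 306 names with at least 20 reads was 0.740. With TMM scaling, which aligns the bulk of the names, the summed ratio was 1.01 (0.885 to 1.15), and with median of ratios it was 0.979 (0.858 to 1.12). Median of ratios gave both libraries the same size factor, so under it a ratio equals that of the raw reads. The direction of the summed ratio therefore depended on the scaling. The intervals take the summed reads as distinct, and are too narrow if names count the same reads.

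**Figure D1:**
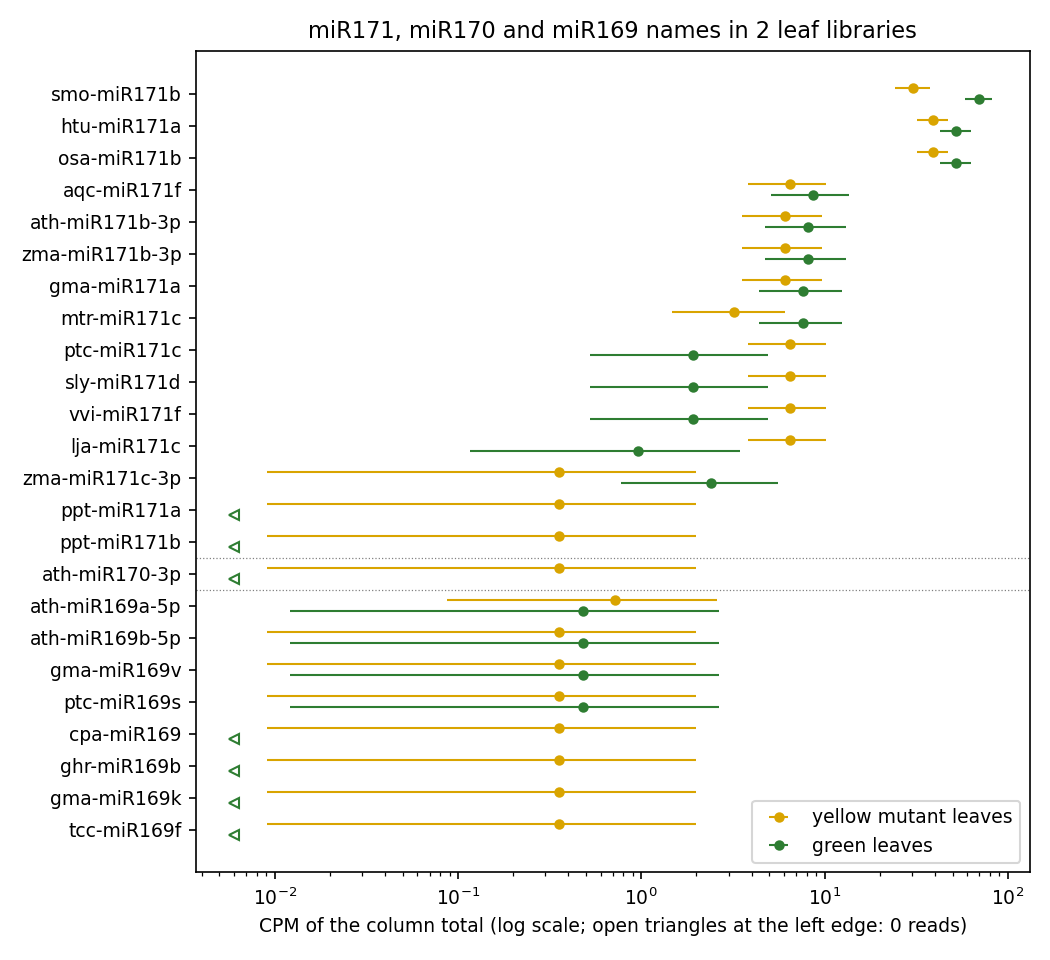
CPM of the column total on a log axis for the 24 names, with yellow mutant leaves above green leaves in each row. Lines are 95% Poisson intervals, dotted lines part miR171, miR170 and miR169, and open triangles mark 0 reads. 3 miR171 names lie above 30 CPM in both libraries, and every miR169 name lies below 1 CPM.

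The most-read names were those of a spikemoss, a sunflower relative and rice. smo-miR171b, named from Selaginella moellendorffii, had 85 reads (30.4 CPM, 24.3 to 37.6) in yellow leaves and 145 reads (69.5 CPM, 58.7 to 81.8) in green leaves. The intervals of these levels did not overlap, and the name was 2.29-fold lower in the yellow library (1.74 to 3.02) by the total. With TMM its ratio was 0.605 and with median of ratios 0.586, short of 2-fold under both. htu-miR171a, from Helianthus tuberosus, and osa-miR171b, from Oryza sativa, had equal counts, with 109 reads each in yellow (39.0 CPM, 32.0 to 47.1) and 109 each in green leaves (52.3 CPM, 42.9 to 63.1). Their ratio of 0.746 (0.567 to 0.982) is that of the column totals, since the raw reads were the same.

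The next names had 16 to 18 reads in green leaves. aqc-miR171f, from a columbine, had 18 yellow-leaf and 18 green-leaf reads. ath-miR171b-3p and zma-miR171b-3p, from Arabidopsis and maize, had 17 yellow-leaf and 17 green-leaf reads. gma-miR171a, from soybean, had 17 yellow-leaf and 16 green-leaf reads. These 4 names were level in raw reads, with ratios of 0.746 to 0.793 by the total and intervals that included 1. mtr-miR171c, from Medicago truncatula, had 9 yellow-leaf and 16 green-leaf reads, and its ratio of 0.420 (0.163 to 1.01) was not called because the interval included 1.

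4 names stood on the other side, with more reads in yellow leaves. ptc-miR171c, sly-miR171d and vvi-miR171f, from poplar, tomato and grapevine, had equal counts of 18 reads (6.44 CPM, 3.82 to 10.2) in yellow leaves and 4 reads (1.92 CPM, 0.523 to 4.91) in green leaves. Their ratio was 3.36 (1.11 to 13.6) by the total and 4.64 with TMM. lja-miR171c, from Lotus japonicus, had 18 yellow-leaf and 2 green-leaf reads, a ratio of 6.72 (1.61 to 59.7). The yellow count of 18 was the same under all 4 names and under aqc-miR171f, and whether they count the same reads was not tested. The calls rest on few reads. With 22 reads a name is called higher only from 18 reads in yellow leaves and 4 in green upward, so the set of equal counts sat on that limit, and lja-miR171c sat on the minimum of 20 reads.

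A name was called at a 2-fold difference or more, if it had 20 reads or more over both libraries and its interval left out 1. By that rule 4 of the 12 miR171 names with enough reads, or 33.3%, were higher in yellow leaves, where 12.1% of all 306 names were. 1 of the 12, or 8.33%, was lower, where 24.8% of all names were. The 4 higher names reached 20 reads only through their 18 reads in yellow leaves, against 4 or 2 in green leaves. The minimum of reads thus helped to select them as higher, and their share is a description only. Names of a family with equal counts may be 1 measurement. With each such set taken once, 2 of 8 count pairs were higher and 1 was lower, where 12.0% of the 292 pairs over the whole table were higher and 24.7% lower. smo-miR171b fell short of the 2-fold limit under every other scaling, with a ratio of 0.526 by the total without the most-read name, so that 4 names were higher and 0 lower. Over all names the shares were then 20.9% higher and 16.3% lower with TMM, and 19.6% higher and 17.6% lower with median of ratios, and 16.3% higher and 20.9% lower by the total without the most-read name. With no minimum of reads, 4 of the 24 names were higher and 1 was lower, where 9.85% of all 467 names were higher and 17.6% lower. With a minimum of 50 reads, 0 of 3 names were higher and 1 was lower, where 11.0% of names were higher and 27.2% lower. With a 1.5-fold limit the member counts stayed at 4 and 1, where 18.0% of names were higher and 34.3% lower. The median log2 ratio of the 12 names was -0.42 by the total, against -0.43 over all 306 names, and 0.05 with TMM, against 0.03. All 12 were miR171 names, since no miR169 or miR170 name reached 20 reads.

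**Figure D2:**
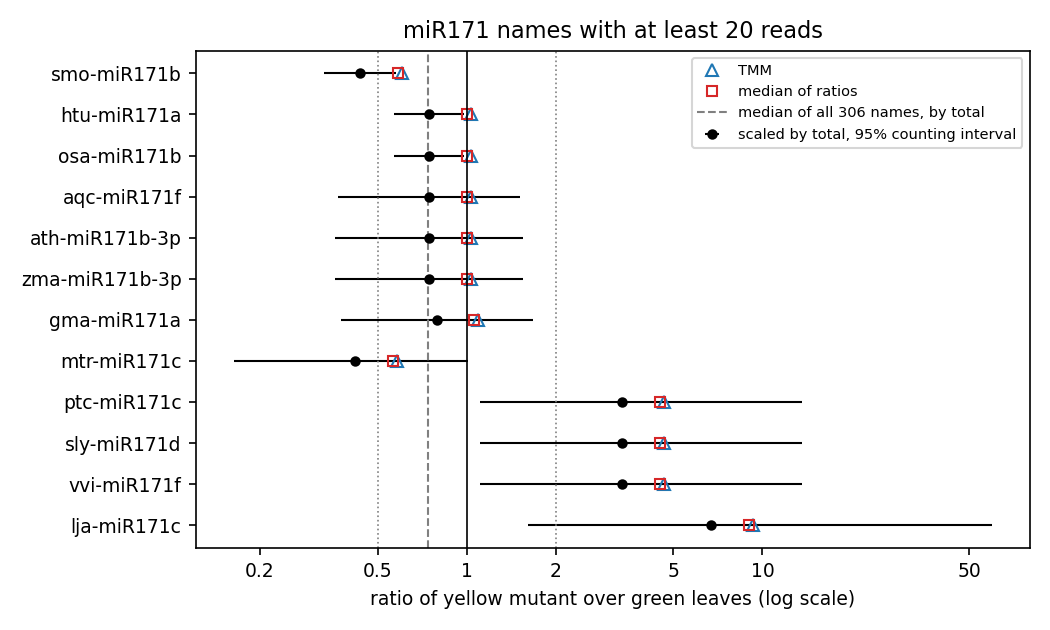
Ratio of yellow mutant over green leaves, on a log axis, for the 12 miR171 names with at least 20 reads. Points with lines are ratios by the total with 95% counting intervals, open symbols are 2 other scalings, the dashed line is the median of all 306 names, and dotted lines mark 2-fold. 4 names lie right of the 2-fold line under each of the scalings shown, and smo-miR171b and mtr-miR171c lie left of the lower 2-fold line by the total only.

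Shares within the family do not depend on the scaling. smo-miR171b held 18.6% (15.2 to 22.5) of the summed miR171 reads in yellow leaves and 31.1% (26.9 to 35.5) in green leaves. ptc-miR171c, sly-miR171d and vvi-miR171f, whose equal counts enter the sum 3 times, held 11.8% (9.02 to 15.2) in yellow and 2.58% (1.34 to 4.45) in green leaves. lja-miR171c held 3.95% (2.36 to 6.17) in yellow and 0.429% (0.052 to 1.54) in green leaves. htu-miR171a with osa-miR171b held 47.8% (43.1 to 52.5) in yellow and 46.8% (42.2 to 51.4) in green leaves, and the intervals of the 2 libraries also overlapped for each other miR171 name. Since the shares add up to the whole, a larger share of some names goes with a smaller one of others. The intervals take the summed reads as distinct, which names that share reads do not allow in full.

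**Figure D3:**
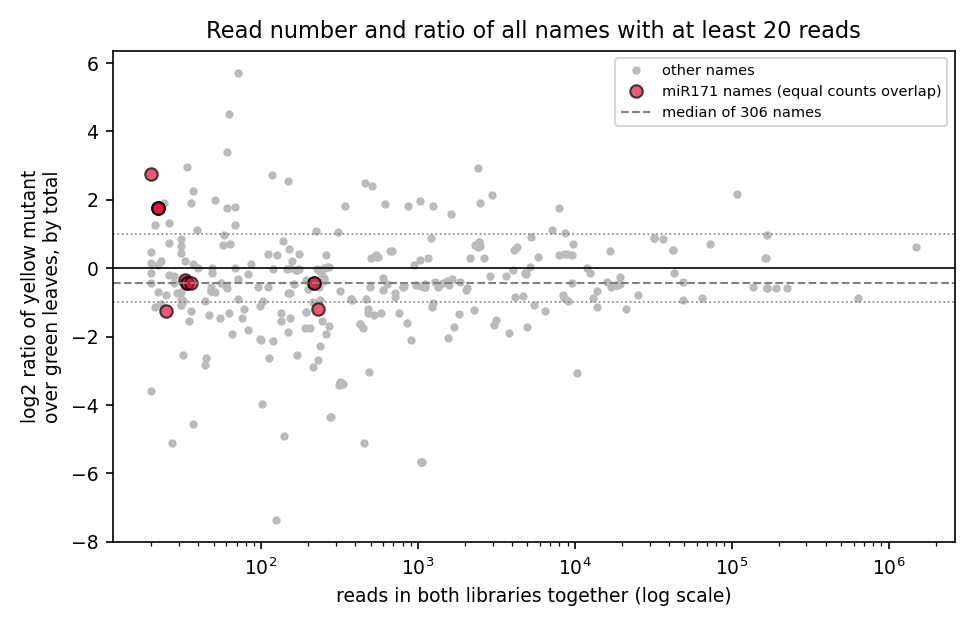
Log2 ratio of yellow mutant over green leaves, scaled by the total, against the reads in both libraries together (log axis), for the 304 names with at least 20 reads and reads in both libraries. The 12 miR171 names (red) have 20 to 230 reads. The 4 higher names lie above the upper dotted line (2-fold), smo-miR171b and mtr-miR171c lie below the lower one, and the other 6 lie near the dashed median of -0.43.

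The other 3 miR171 names had few reads. zma-miR171c-3p had 1 yellow-leaf and 5 green-leaf reads, a ratio of 0.149 (0.00316 to 1.33). The names from the moss Physcomitrella patens, ppt-miR171a and ppt-miR171b, had 1 read each in yellow and 0 in green leaves. The floor set for reading a count of 0 was 3 reads, or 1.44 CPM in the green library. This is a lower bar than the upper end of the 95% Poisson interval at 1.77 CPM. Counts of 0 were kept as 0 and not replaced by the floor. The reads of ppt-miR171a and ppt-miR171b lay under that floor in both libraries, as did those of ath-miR170-3p and of each miR169 name. No ratio was formed for ppt-miR171a, ppt-miR171b or ath-miR170-3p, because each had 0 reads in green leaves.

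miR169 was close to the limit of detection in both leaf types. ath-miR169a-5p had 2 yellow-leaf and 1 green-leaf reads. ath-miR169b-5p, gma-miR169v and ptc-miR169s had 1 read in each library. cpa-miR169, ghr-miR169b, gma-miR169k and tcc-miR169f, from papaya, cotton, soybean and cacao, had 1 read each in yellow and 0 in green leaves. If all names counted the same reads, the family rested on 2 reads in yellow leaves and 1 in green. The summed ratio was 1.68 (0.469 to 7.46), an interval that includes 1 and runs to several fold on the higher side, so no difference was detectable at this depth.

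6 sets of equal counts held 16 of the 24 names. 3 of them lay among the 12 names with at least 20 reads and held 7 names. The other 3, with 0 to 1 reads in each library, can be equal by chance. Allowing counts to differ by 5% joined no further name. For counts under 20 that tolerance is less than 1 read, so there it could join no further name. Only smo-miR171b, htu-miR171a and osa-miR171b had 20 or more reads in a library.

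The predicted targets, from the authors' deposited table, gave miR169 and the other names no gene in common. The table names 30 of its 2713 target genes for the 24 names, 16 for miR171 and miR170 and 14 for miR169, and all 24 names had at least 1 target. None of the 128 pairs of a miR169 name with a miR171 or miR170 name shared a target, while 105 of 120 pairs within miR171 and miR170 and 28 of 28 pairs within miR169 did. These are predictions, and the mRNA of the targets was not measured.

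The GRAS targets were 2 genes. Gb_28344, matching scarecrow-like protein 6 (SCL6), the Arabidopsis GRAS factor for which miR171 is known, was listed for 14 of the 16 miR171 and miR170 names, the most of any target. Those 14 names summed to 422 reads in yellow and 448 in green leaves. The exceptions were gma-miR171a and lja-miR171c. Gb_25709, matching nodulation-signaling pathway 2 (NSP2), a GRAS protein that acts in root symbiosis signalling in Medicago truncatula, was listed for 8 miR171 names with 175 reads in yellow and 189 in green leaves. lja-miR171c was listed for this gene and not for the SCL6 match. GRAS matches made up 22 of the 49 pairs of a miR171 or miR170 name with a target.

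Names with equal counts were not always listed for the same genes. sly-miR171d and vvi-miR171f had the same 4 targets (the SCL6 and NSP2 matches, Gb_38183 and Gb_19024), while ptc-miR171c, with the same counts, had the SCL6 match alone. osa-miR171b shared both of its targets with htu-miR171a, which had 3. Over the 5 pairs of equal counts with at least 20 reads, shared targets were 25% to 100% of the targets listed for the pair, and 1 pair had the same list.

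Beyond GRAS, the most often listed target of miR171 was Gb_38183, matching chloroplast arogenate dehydrogenase 2, an enzyme of tyrosine synthesis. It was listed for 8 names with 390 reads in yellow and 421 in green leaves, and for gma-miR171a it was the sole target. Gb_19024, matching the peroxisomal acetate/butyrate-CoA ligase AAE7, was listed for 6 names with 72 reads in yellow and 42 in green leaves. Its summed ratio was 1.28 (0.863 to 1.92) by the total and 1.77 with TMM. For the SCL6 match the summed ratio was 0.703 (0.614 to 0.805) by the total and 0.972 with TMM, so its side of 1 was not settled. The gap between the sums reflects which names list each gene. The Gb_19024 list lacked smo-miR171b, htu-miR171a and osa-miR171b and held sly-miR171d and vvi-miR171f. The 6 names listed for Gb_19024 fell into pairs of equal counts, and the SCL6 sum also held such sets. If names of a set count the same reads, both intervals are too narrow. Gb_31065, with no protein match, was listed for aqc-miR171f and htu-miR171a.

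smo-miR171b had 7 targets, the most of the miR171 names. The 4 listed for no other name in the table were Gb_00757 and Gb_23263, both matching a pentatricopeptide repeat protein, Gb_26331, matching the abscisic acid receptor PYL8, and Gb_27825, with no match. Apart from Gb_00757 these are named here after their values were seen, as is Gb_34237, matching an anthocyanidin glucosyltransferase of petunia and listed for zma-miR171b-3p, a name with 17 reads in yellow and 17 in green leaves.

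The nuclear factor Y targets were likewise 2 genes, both matching A subunits. Gb_31427, matching NF-YA7, was listed for all 8 miR169 names, and Gb_14803, matching NF-YA5, for 6 of them. gma-miR169k and tcc-miR169f were the exceptions. Together they made up 14 of the 48 miR169 pairs. Gb_09433, with no protein match, was also listed for all 8 names. Gb_26928, matching the transcriptional corepressor TOPLESS, was listed for 7, and Gb_27937 and Gb_27938, both matching zinc finger protein C3H20, for 5. Gb_11175, with no match, was listed for 2. Gb_02392, matching a gamma-tubulin complex protein, was listed for ghr-miR169b. The targets of either family not named above were each listed for 1 of the 24 names.

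**Figure D4:**
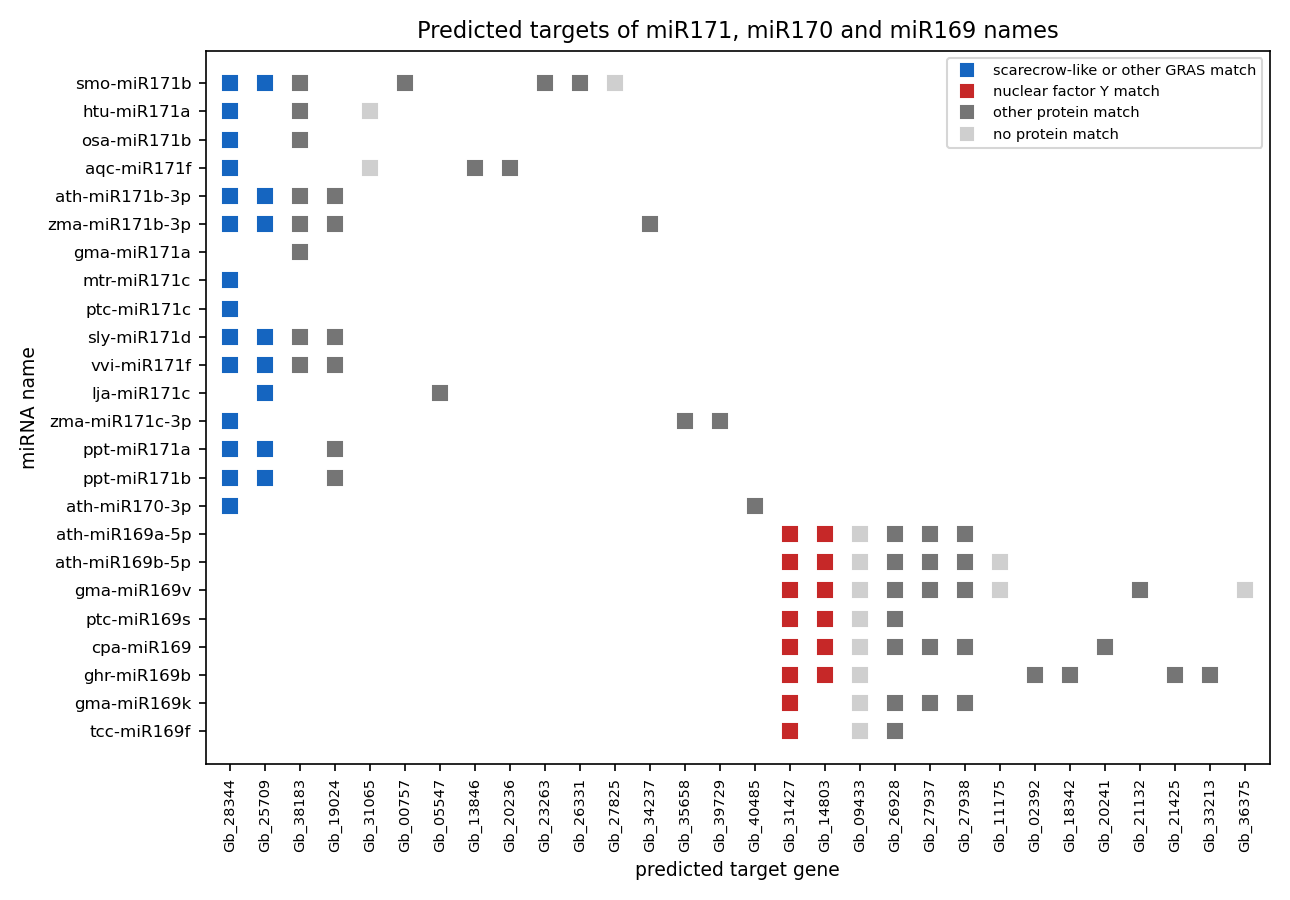
Predicted target genes (columns) of the 24 names (rows, in order of family and reads), where a filled square marks a gene listed for a name in the authors' deposited table and its colour the group of the protein match. Scarecrow-like and other GRAS matches (blue) stand under miR171 and miR170 alone and nuclear factor Y matches (red) under miR169 alone.

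Names outside these families were also listed for GRAS and nuclear factor Y genes. Of 5 genes with a GRAS match, 2 were listed for miR171 names, and of 4 with a nuclear factor Y match, 2 were listed for miR169 names, while among all 2713 target genes 1.11% were listed for any of the 24 names. The GRAS keywords also caught 1 disease resistance protein, RGA3, which is set aside here. The SCL6 match Gb_28344 was also listed for novel_297, one of the names that the authors only numbered, which had 37 yellow-leaf and 34 green-leaf reads, a ratio of 0.812 (0.496 to 1.33). The other 3 GRAS genes matched NSP2. Gb_04434 and Gb_04435 were listed for novel_162, with 11 reads in yellow and 14 in green leaves, and Gb_26657 for novel_118, with 145 reads in yellow and 108 in green leaves.

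For the nuclear factor Y A subunits, 2 numbered names were listed as well, each with more reads than any single miR169 name. novel_172 was listed for both Gb_31427 and Gb_14803, and each of its 6 targets was also listed for a miR169 name. It had 5 yellow-leaf and 8 green-leaf reads, a ratio of 0.466 (0.120 to 1.62). novel_150 was listed for Gb_31427, 1 of its 7 targets. It had 32 reads (11.5 CPM) in yellow leaves and 5 reads (2.40 CPM) in green leaves. The name was 4.78-fold higher in the yellow library (1.85 to 15.7) and passed the rule under each of the 4 scalings. All scalings use the same reads, so they are not separate checks. Depending on the scaling, 12.1% to 20.9% of all 306 names were called higher. novel_150 reached 20 reads only through its yellow-leaf reads, so the minimum helped to select it as higher. Gb_32704, another NF-YA7 match, was listed for hbr-miR156, with 1 read in yellow and 0 in green leaves. Gb_13087, matching the C subunit NF-YC2, was listed for ath-miR5658, with 0 yellow-leaf and 2 green-leaf reads.

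The names whose ratio lay nearest to that of smo-miR171b, among 214 names of other families with at least 100 reads, were novel_29, novel_28, ppt-miR319a, smo-miR1083 and mtr-miR319a-3p. Their ratios of 0.421 to 0.458 stood beside 0.437 for smo-miR171b. Likeness here is the distance of log2 ratios over 2 libraries, so it compares a single value per name.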

How the data were processed

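Small RNA of 2 leaf libraries was analysed from a table of read counts per miRNA name and a table of predicted targets, both deposited by the authors. Per the file headers the values are raw counts, and the submitters' processing notes name Bowtie without a version. Not given in the sources used here are the counting rule, the miRBase release, the genome build and the target predictor. Sequences were not used here. CPM, ratios and exact intervals were computed with scipy 1.17.1 on Python 3.11.15, and the rule of size was tested on simulated data. The simulation used independent names, equal depth and 1 size of difference. It therefore did not cover names that share reads, unequal totals or calls at the limit. With 1 library per leaf type no p-value was computed. The floor for reading a count of 0 was 3 counts, or 1.07 CPM in the yellow and 1.44 CPM in the green library. It replaced no count. Other scalings used TMM (edgeR 4.0.16), median of ratios (DESeq2 1.42.0) and the total without novel_1, the most-read name. Other choices were sets of equal counts taken once, no minimum or a minimum of 50 reads, and a 1.5-fold limit. Target genes were grouped by keywords in the protein match, at the start of a word. Named were all members, their GRAS and nuclear factor Y targets, and the 10 other genes listed for most members. Members and lists were chosen with earlier results of these data known.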

Additional observations from a re-analysis of the deposited data

How the results depend on the processing

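The summed miR171 ratio of 0.730 by the total moved to 1.01 under TMM, 0.979 under median of ratios, 0.878 by the total without the most-read name and 0.437 for smo-miR171b alone. It was 0.659 with equal counts once and 0.733 from names of at least 20 reads. The miR169 ratio lay between 1.49 and 2.32, always inside its counting interval, and no miR169 name had 20 reads. Of higher names there were 4 under each scaling, with no minimum and with a 1.5-fold limit, 2 with equal counts once and 0 with a minimum of 50 reads. The 1 lower name, smo-miR171b, gave 0 with each other scaling. With names of at least 20 reads only, the target genes were 13 in place of 30, with 0 nuclear factor Y genes in place of 2, and 25 of the 30 had a protein match. Of 36 ratios of single names under other scalings, 7 crossed 1, for names that were not called. No paired analysis was possible because each leaf type has 1 library, and for the same reason no library could be left out. Depth limits the calls, since 12 of the 24 names had under 20 reads.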
